A study of Mus musculus with 9 samples.

Results

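A set of 9 genes was followed through mouse colon injured with dextran sulfate sodium (DSS): 7 that serve the entry of leukocytes from blood (Selp, Sele, Selplg, Icam1, Vcam1, Madcam1 and Ackr1) and, as a reference, the vessel markers Pecam1 and Cdh5. They were taken by gene symbol, and all 9 of the 9 were found among the 21959 genes of the table. The 9 libraries came from colon of wild-type mice in 3 groups of 3, namely untreated mice (Blank), mice given DSS (Model), and mice given DSS with carbon dots made from lotus node charcoal (CDs). Both Model and CDs carried DSS, a polymer that damages the colon lining, and no group received carbon dots without it. Not given in the sources used here were strain, sex, age, doses, timing and the number of animals behind each library. The series text calls the replicates biological.

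Leukocytes leave blood mostly through small veins. Selectins on the endothelium catch glycan-bearing proteins such as P-selectin glycoprotein ligand on the leukocyte and slow it to a roll, chemokines then activate leukocyte integrins, and the integrins bind immunoglobulin-type ligands on the vessel wall before the cell crosses the endothelial junctions. In gut, MAdCAM-1 (Madcam1) is the ligand of the integrin α4β7, the receptor that homes lymphocytes to this tissue. Inflammatory cytokines acting through the transcription factor NF-kB are the textbook inducers of E-selectin, ICAM-1, VCAM-1 and MAdCAM-1. PECAM-1 and VE-cadherin (Cdh5) instead belong to endothelial junctions at rest. They serve here as vessel markers, although PECAM-1 is not confined to endothelium.

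Libraries held 13868864 to 19940300 counted reads, and 3 reads corresponded to 0.150 to 0.216 CPM (counts scaled to a common library size), a detection limit that covers counting error only. The 10 epithelial markers were all detected in every library. Vessel markers were detected too: none of the 20 other vessel wall genes was at 0 in any library. Transcripts of pancreatic acinar cells were found in 3 libraries: the summed level of 11 acinar genes was 69579 CPM in Model 3, 8460 CPM in Model 1 and 386 CPM in CDs 1, beside 27.7 to 220 CPM in the other 6. Summed markers of prostate and seminal vesicle were at 1537 CPM in Blank 2 and 80.9 to 289 CPM in the other 8. The sums in Model and CDs were nearly all from 1 gene of the list, Spink1. With the library scaling of the tests, Spink1 was at 160 to 248 CPM in Model and 148 to 286 CPM in CDs. Tgm4 was at 1.19 to 1.61 CPM in Model and 0.957 to 2.50 CPM in CDs. Summed leukocyte markers stood apart within 2 groups, at 520 CPM in Blank 1 beside 285 and 299 CPM in the other Blank libraries, and at 2608 CPM in CDs 1 beside 1230 and 1241 CPM in CDs 2 and CDs 3. In bulk tissue, more cells of a type and more RNA per cell cannot be told apart.

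The vessel markers themselves rose with DSS. Pecam1, the endothelial and platelet adhesion molecule PECAM-1 (ENSMUSG00000020717, chromosome 11, 106545043 to 106641454), was at 9.79, 9.73 and 10.04 FPKM in Blank 1, 2 and 3 and at 22.0, 33.9 and 28.5 FPKM in Model 1, 2 and 3, where FPKM is the deposited read count scaled to gene length and library total. Its levels in CDs 1, 2 and 3 were 27.6, 27.1 and 20.7 FPKM. Every DSS library thus lay above every Blank library, with little spread in Blank. The log2 fold change in Model versus Blank was 1.45 ± 0.15 (SE; edgeR adjusted p = 3.29e-04), a 2.74-fold rise, and 1.27 ± 0.15 in CDs versus Blank (edgeR adjusted p = 6.77e-04). Cdh5, encoding VE-cadherin of the endothelial junction (ENSMUSG00000031871, chromosome 8, 104828257 to 104871143), was at 6.47, 5.58 and 5.76 FPKM in Blank, 15.0, 21.7 and 21.1 FPKM in Model and 18.5, 19.6 and 14.2 FPKM in CDs, each in the order of the replicate numbers. Its groups did not overlap with Blank either. It rose 3.12-fold in Model (log2 fold change 1.64 ± 0.16; edgeR adjusted p = 3.04e-04) and 2.77-fold in CDs (1.47 ± 0.16; edgeR adjusted p = 5.62e-04). Model 1 was the lowest of the Model libraries for both markers. Of 20 other vessel wall genes 19 rose in Model and none fell, with a median log2 fold change of 1.41 beside -0.03 over all 14921 tested genes. Among them Vwf, the von Willebrand clotting factor stored in endothelium, changed by 1.62 ± 0.12 and Eng, a TGF-beta co-receptor, by 1.82 ± 0.19. The tight junction gene Cldn5 did not pass (0.91 ± 0.33; edgeR adjusted p = 0.0517). Coordinates are printed as deposited, with their genome build among the details not given in the sources used here.

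All 9 genes were called higher (edgeR adjusted p under 0.05) in Model than in Blank and in CDs than in Blank. This is to be read against 24.5% of all tested genes called higher and 19.6% called lower in Model, and 21.8% called higher and 13.8% called lower in CDs. The 3 DSS libraries lay wholly above the 3 Blank libraries for all 9 genes in both comparisons, which held for 30% of tested genes in Model versus Blank and for 28.2% in CDs versus Blank. Both comparisons use the same Blank libraries. Of the 9 genes, 8 would also have passed the filter on low counts on their Blank levels alone, whereas Sele passed through the DSS libraries and so had to differ if it was tested at all.

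The selectins of the vessel wall had the largest fold changes of the 9. Selp, P-selectin, which endothelium stores and brings to its surface within minutes of injury (ENSMUSG00000026580, chromosome 1, 163942833 to 163977595), was close to absent in Blank at 0.225, 0.314 and 0.245 FPKM. It reached 6.68, 15.0 and 10.5 FPKM in Model 1, 2 and 3 and 8.53, 5.81 and 5.23 FPKM in CDs 1, 2 and 3. Every DSS library lay above every Blank library, with a wide spread within Model. Selp rose 39.0-fold in Model versus Blank (log2 fold change 5.29 ± 0.34; edgeR adjusted p = 1.45e-04) and 23.3-fold in CDs versus Blank (4.54 ± 0.34; edgeR adjusted p = 2.71e-04). Ranked from the highest fold change, it was number 94 of 14921 tested genes in Model versus Blank. P-selectin is also made by megakaryocytes and carried by platelets. Summed platelet markers were at 14.7 to 18.6 CPM in Blank, 31.1, 113 and 40.5 CPM in Model 1, 2 and 3, and 33.5 to 40.7 CPM in CDs, with 1 to 3 of the 10 listed genes at 0 in each library, and of the 3 that passed the filter on low counts in Blank alone 2 were called higher in Model. Their part in the Selp result was not tested.

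Sele, E-selectin, which endothelium makes anew after cytokine exposure (ENSMUSG00000026582, chromosome 1, 163875773 to 163885246), had 1, 0 and 3 reads in Blank 1, 2 and 3. These counts were at or under the detection limit of 3 reads. Model 1, 2 and 3 held 77, 239 and 228 reads (1.88, 4.07 and 5.06 FPKM), and CDs 1, 2 and 3 held 151, 165 and 81 reads (3.56, 3.38 and 1.98 FPKM). In both DSS groups Sele was thus readily detected, at a level below that of Selp in every library. With reads summed by group, 544 in Model against 4 in Blank gave a ratio of 125 (exact binomial 95% interval 48.4 to 460, counting error only), and 397 in CDs against 4 gave 99.7 (38.6 to 368). Sele passed the filter on low counts only with the DSS libraries, so that its adjusted p is not given. The fitted log2 fold change was 6.75 ± 0.67 in Model and 6.41 ± 0.68 in CDs. Those values rest on the 4 Blank reads, and without Blank 3, which held 3 of them, they were 8.04 and 7.70. The level of Selp over that of Sele, both in FPKM, was 3.55, 3.69 and 2.07 in Model 1, 2 and 3 and 2.40, 1.72 and 2.63 in CDs 1, 2 and 3.

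**Figure D1:**
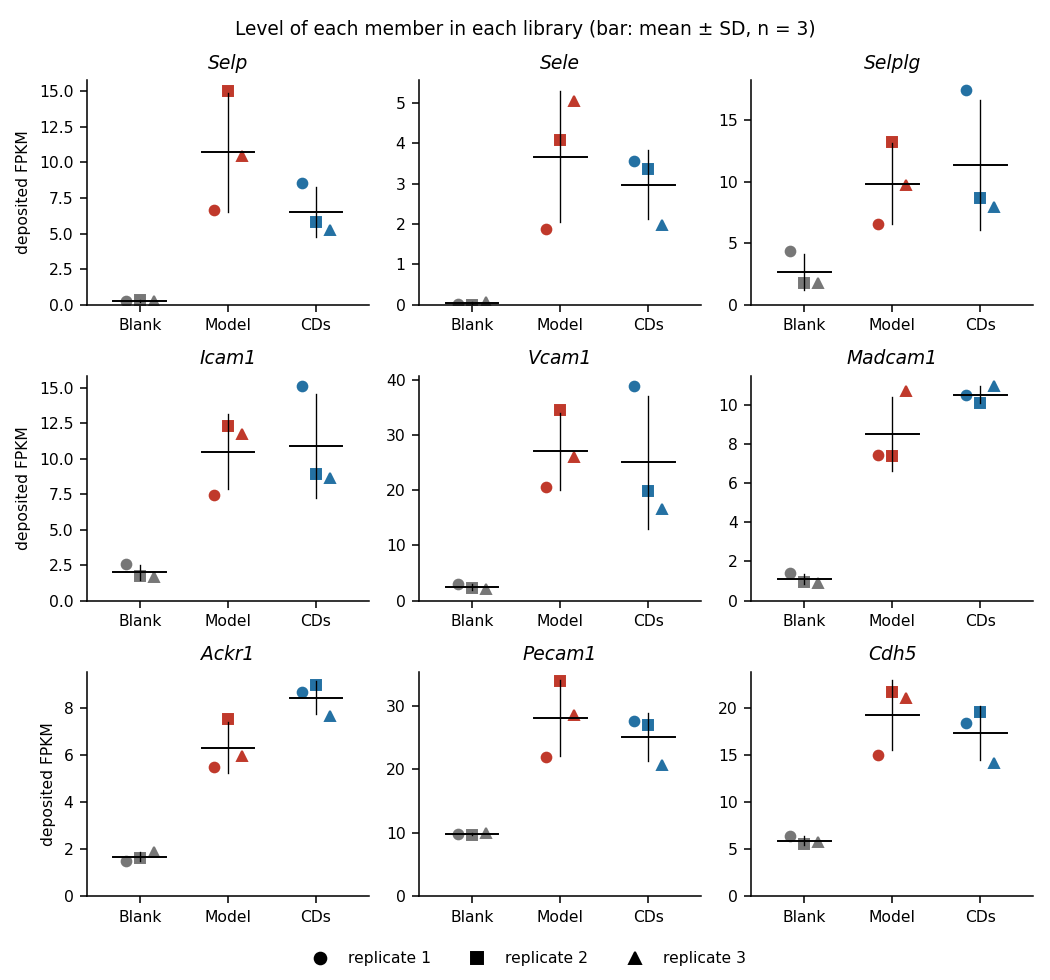
Deposited FPKM of the 9 genes in each library (points; symbol shape gives the replicate number) in Blank, Model and CDs, with the group mean and SD (n = 3; bars stop at 0). All DSS libraries lie above all Blank libraries in each panel, from 0 to 0.0735 FPKM in Blank against 1.88 to 5.06 FPKM in Model for Sele, and CDs 1 is the highest library for Selplg, Icam1 and Vcam1.

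Among the integrin ligands of the immunoglobulin family, Vcam1 changed most. Vcam1, the ligand of the integrin α4β1 (ENSMUSG00000027962, chromosome 3, 115903598 to 115923337), was at 3.02, 2.19 and 2.02 FPKM in Blank, 20.7, 34.5 and 26.1 FPKM in Model and 38.9, 19.8 and 16.6 FPKM in CDs, in the order of the replicate numbers. CDs 1 lay above all Model libraries, and CDs 2 and CDs 3 lay below them. Vcam1 rose 10.8-fold in Model (log2 fold change 3.43 ± 0.33; edgeR adjusted p = 2.77e-04) and 9.70-fold in CDs (3.28 ± 0.32; edgeR adjusted p = 4.33e-04). Icam1, the ligand of the β2 integrins LFA-1 and Mac-1 (ENSMUSG00000037405, chromosome 9, 20927281 to 20940113), was at 2.61, 1.73 and 1.64 FPKM in Blank, 7.46, 12.3 and 11.7 FPKM in Model and 15.2, 8.96 and 8.66 FPKM in CDs. Its order of libraries within Blank and CDs was that of Vcam1, with replicate 1 the highest in both groups. Icam1 rose 5.06-fold in Model (2.34 ± 0.28; edgeR adjusted p = 4.98e-04) and by 2.36 ± 0.28 on the log2 scale in CDs (edgeR adjusted p = 6.99e-04). Neither gene is confined to endothelium: stromal cells and macrophages make VCAM-1, and many cell types make ICAM-1 in inflammation. The ratio of Vcam1 to Icam1, in FPKM, was 1.16 to 1.27 in Blank, 2.22 to 2.80 in Model and 1.91 to 2.56 in CDs, so that it was higher in all 6 DSS libraries than in any Blank library.

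Madcam1 (ENSMUSG00000020310, chromosome 10, 79500393 to 79504371) was at 1.38, 0.966 and 0.904 FPKM in Blank, 7.41, 7.37 and 10.7 FPKM in Model and 10.5, 10.1 and 10.9 FPKM in CDs. The CDs libraries lay close together, and their range held Model 3. Madcam1 rose 7.49-fold in Model (log2 fold change 2.91 ± 0.24; edgeR adjusted p = 2.31e-04) and 9.10-fold in CDs (3.19 ± 0.24; edgeR adjusted p = 2.71e-04). The transcripts of high endothelial venules, the lymphocyte gates of lymphoid tissue that also carry MAdCAM-1 in gut, moved in part: of 4 tested genes in a list of 5, the lymphoid chemokine gene Ccl21a (2.08 ± 0.16) and the enzyme gene Enpp2 (1.17 ± 0.16) were called higher in Model. Ccl21a is also among the lymphatic vessel markers below, all 7 of which were called higher in Model. Chst4, a sulfotransferase of these venules, was not called (-0.58 ± 0.28; edgeR adjusted p = 0.120), nor was the mucin-like ligand gene Glycam1 (0.96 ± 0.48; edgeR adjusted p = 0.128). In Blank, Chst4 was at 57.7 to 65.6 CPM, beside 0.274 to 1.09 CPM for Glycam1. Which cells supply the Chst4 reads was not tested. Fut7, a fucosyltransferase, did not pass the filter on low counts. In CDs versus Blank 3 of the 4 were called higher. Glycam1, which is among them (2.18 ± 0.46), would not have passed the filter in Blank alone and so supports no count. Glycam1 was not called in CDs versus Model.

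Ackr1, the atypical receptor that carries chemokines across venular endothelium and is also found on red cells (ENSMUSG00000037872, chromosome 1, 173159453 to 173161317), was at 1.503, 1.65 and 1.90 FPKM in Blank and 5.48, 7.53 and 5.95 FPKM in Model. It was at 8.68, 8.99 and 7.64 FPKM in CDs, where each library lay above each Model library. Ackr1 rose 3.61-fold in Model (log2 fold change 1.85 ± 0.17; edgeR adjusted p = 2.69e-04) and 4.75-fold in CDs (2.25 ± 0.17; edgeR adjusted p = 2.71e-04). Summed erythroid markers were at 17.6 to 24.4 CPM in Blank, 80.8 to 432 CPM in Model and 17.4 to 35.8 CPM in CDs, so that each CDs library, all higher in Ackr1 than the Model libraries, was lower in these markers. Their part in the Ackr1 result was not tested. Over 493 of its 1865 bases, Ackr1 overlaps Cadm3, a neuronal adhesion gene on the same strand, and the reads of the shared stretch cannot be assigned with certainty. Cadm3 had 218 to 304 reads per library in Blank, 419 to 857 in Model and 391 to 592 in CDs, beside 34 to 37, 107 to 211 and 149 to 210 for Ackr1.

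Selplg encodes the selectin ligand PSGL-1 and sits on leukocytes rather than on the vessel (ENSMUSG00000048163, chromosome 5, 113956597 to 113970705). It was at 4.33, 1.79 and 1.79 FPKM in Blank, 6.58, 13.2 and 9.75 FPKM in Model and 17.4, 8.71 and 7.98 FPKM in CDs. Blank 1 and CDs 1 were the high libraries of their groups, as for Vcam1 and Icam1. Selplg rose in Model (log2 fold change 1.83 ± 0.42; edgeR adjusted p = 0.00879) and 4.01-fold in CDs (SE 0.42 on the log2 scale; edgeR adjusted p = 0.00750), with the largest spread relative to its fold change among the 9. Set against 12 leukocyte markers, the groups could not be separated. There were 3.56, 2.57 and 2.68 Selplg reads per 100 reads of these markers in Blank 1, 2 and 3, 2.599, 3.42 and 2.66 in Model and 2.86, 3.02 and 2.75 in CDs, and all 3 groups overlapped. The markers themselves, among them Laptm5 (1.97 ± 0.30) and the β2 integrin chain Itgb2 (2.20 ± 0.34), were called higher in Model for 12 of 12 genes. Of 10 neutrophil markers 7 passed the filter on low counts only with DSS libraries and so support no count. Of the other 3, Csf3r (4.24 ± 0.34) and Ly6g (1.62 ± 0.25) rose in Model, and Cd177, a neutrophil surface gene that colon epithelium also expresses, fell (-1.999 ± 0.46; edgeR adjusted p = 0.00880). Ly6g was already at 70.8 to 86.0 CPM in Blank, beside 2.26 to 4.89 CPM for Csf3r, and the source of its Blank reads was not tested. The 10 summed to 2960 CPM in Model 2 beside 532 and 651 CPM in the other Model libraries. They summed to 641, 291 and 247 CPM in Blank 1, 2 and 3, where Cd177 alone was at 176 to 568 CPM, and to 1448, 642 and 663 CPM in CDs 1, 2 and 3. B cell markers summed to 104 CPM in Blank 1 beside 43.8 and 59.1 CPM in the other Blank libraries, and to 495 CPM in CDs 1 beside 143 and 172 CPM in CDs 2 and CDs 3. The same 2 libraries were thus high in Selplg, leukocyte markers and B cell markers. The part of lymphocyte content in the values of Vcam1 and Icam1 was not tested. Without Blank 1 and CDs 1 all 9 genes were again called higher in Model and in CDs than in Blank.

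**Figure D2:**
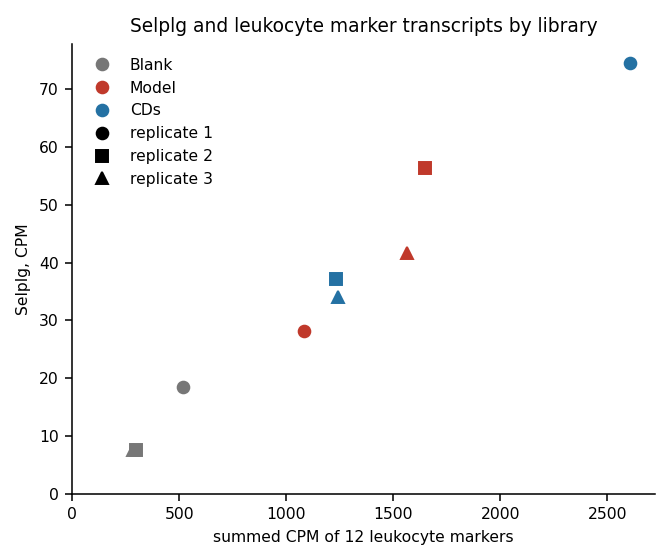
Selplg against the summed level of 12 leukocyte markers in each library, both in CPM on the library total. The libraries run from 7.64 CPM of Selplg and 285 CPM of markers in Blank 3 to 74.5 CPM and 2608 CPM in CDs 1, in the same order on both axes except for CDs 2 and CDs 3.

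The upstream sequences of 5 of the 9 genes were found in the RefSeq promoter table of GRCm38.p6 (Selp, Sele, Icam1, Madcam1 and Ackr1). All 5 rose here. The 250 bases before the annotated start are shown for the 4 that held a match to a motif searched, 5′ to 3′ on the plus strand. Capitals mark matches, on either strand, to the NF-kB consensus, to a shorter kB-like pattern GGANNNTCC that overlaps it in part, to the AP-1 pattern TGANTCA and to the TATA pattern TATAAA. Selp lies at chr1:164115014-164115263, Sele at chr1:164047984-164048233, Icam1 at chr9:21015690-21015939 and Madcam1 at chr10:79664309-79664558 of GRCm38.p6, a build that need not be the one of the deposited coordinates.
Selp: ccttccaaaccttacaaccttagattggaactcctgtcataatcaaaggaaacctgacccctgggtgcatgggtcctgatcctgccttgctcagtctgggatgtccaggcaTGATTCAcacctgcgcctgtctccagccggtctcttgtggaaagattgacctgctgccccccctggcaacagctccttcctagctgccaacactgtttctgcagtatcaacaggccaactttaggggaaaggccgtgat
Sele: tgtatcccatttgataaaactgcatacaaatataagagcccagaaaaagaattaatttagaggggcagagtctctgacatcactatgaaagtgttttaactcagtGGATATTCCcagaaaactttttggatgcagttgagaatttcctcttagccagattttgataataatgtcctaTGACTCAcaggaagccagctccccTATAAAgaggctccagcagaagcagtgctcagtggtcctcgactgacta
Icam1: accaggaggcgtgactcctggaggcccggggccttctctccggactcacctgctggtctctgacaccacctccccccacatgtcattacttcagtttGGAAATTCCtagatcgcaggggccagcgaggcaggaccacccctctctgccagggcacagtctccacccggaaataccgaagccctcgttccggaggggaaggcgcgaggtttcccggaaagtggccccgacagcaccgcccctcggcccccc
Madcam1: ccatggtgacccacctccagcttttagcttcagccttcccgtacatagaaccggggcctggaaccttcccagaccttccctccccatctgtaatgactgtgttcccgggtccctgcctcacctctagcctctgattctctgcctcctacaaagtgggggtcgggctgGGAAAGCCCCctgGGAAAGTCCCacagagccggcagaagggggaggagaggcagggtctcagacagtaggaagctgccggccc

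Counted back from the start at -1, Madcam1 held a pair of NF-kB consensus matches, at -83 to -74 and at -70 to -61, the second of which overlaps a kB-like match. Icam1 held 1 kB-like match at -153 to -145, and Sele held 1 at -145 to -137 together with an AP-1 match at -73 to -67 and a TATA match at -49 to -44. Selp held only an AP-1 match, at -139 to -133, and Ackr1 held none of the 4 patterns. Of 32851 promoters searched over the same 250 bases, 3.90% held the NF-kB consensus, 7.27% the kB-like pattern, 6.75% the AP-1 pattern and 12.4% the TATA pattern. These matches describe letters in the window, not binding.

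Per unit of gene length, the order of the 9 genes differed between groups. In Blank the vessel markers led, Pecam1 at 9.85 ± 0.16 FPKM and Cdh5 at 5.94 ± 0.47 FPKM (SD, n = 3), without overlap with each other or with the next gene. Selplg, Vcam1, Icam1 and Ackr1 followed, each overlapping the next one, and then Madcam1, Selp and Sele, each below the one before without overlap. In Model, Vcam1 at 27.1 ± 7.0 FPKM was second to Pecam1 at 28.1 ± 6.0 FPKM and overlapped it, followed by Cdh5, Selp, Icam1, Selplg, Madcam1 and Ackr1, where each neighbour overlapped the next. Sele alone stood apart at the bottom, at 3.67 ± 1.63 FPKM. Selp was thus number 8 of 9 in Blank and number 4 in Model. In CDs, Pecam1 (25.1 ± 3.8 FPKM) and Vcam1 (25.1 ± 12.04 FPKM) again overlapped at the top, Selp was number 8 at 6.52 ± 1.76 FPKM and Sele last at 2.97 ± 0.86 FPKM.

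To ask which adhesion genes rose beyond the vessel markers, the same counts were scaled to the summed reads of Pecam1 and Cdh5 in place of the whole library. This scale places the median of all tested genes at -1.51 in Model versus Blank and -1.31 in CDs versus Blank on the log2 scale, because the vessel markers rose themselves. The values below are changes relative to the vessel markers alone, not changes per endothelial cell. The part of platelets and leukocytes in the Pecam1 reads was not tested. Of the 7 adhesion genes 5 (Selp, Sele, Vcam1, Madcam1 and Icam1) rose relative to the vessel markers in Model, beside 4.12% of all tested genes. In CDs 6 of 7 did (the same 5 and Ackr1), beside 3.89%. Sele, which is in both counts, passed the filter on low counts only with the DSS libraries and so supports neither.

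There were 1.13, 1.65 and 1.25 Selp reads per 100 vessel marker reads in Blank 1, 2 and 3, 14.7, 22.0 and 17.3 in Model and 15.1, 10.2 and 12.2 in CDs. Selp thus rose 13.4-fold relative to the vessel markers in Model (log2 fold change 3.75 ± 0.27; edgeR adjusted p = 3.49e-05) and 9.32-fold in CDs (3.22 ± 0.27; edgeR adjusted p = 5.90e-05). Sele went from 0.0705, 0 and 0.249 reads per 100 vessel marker reads in Blank to 2.77, 3.97 and 5.58 in Model and 4.197, 3.96 and 3.10 in CDs. All of its DSS values were above 2, and all Blank values below 1. Its fitted log2 fold change on this scale was 5.26 ± 0.58 in Model and 5.13 ± 0.58 in CDs, and without Blank 3 6.65 and 6.52.

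Vcam1 had 30.4, 23.1 and 20.6 reads per 100 vessel marker reads in Blank, 91.7, 101 and 86.7 in Model and 138, 70.2 and 77.9 in CDs. The 3 Model libraries differed less on this scale than in FPKM, with Vcam1 reads close to the sum of Pecam1 and Cdh5 reads in each. It rose 3.77-fold relative to the vessel markers in Model (1.92 ± 0.28; edgeR adjusted p = 5.73e-05) and 3.86-fold in CDs (1.95 ± 0.28; edgeR adjusted p = 1.05e-04). Madcam1 rose 2.67-fold in Model (1.42 ± 0.29; edgeR adjusted p = 6.55e-04) and 3.70-fold in CDs (1.89 ± 0.29; edgeR adjusted p = 1.37e-04), from 1.496 to 2.26 reads per 100 in Blank to 3.50 to 5.75 in Model and 5.78 to 8.34 in CDs. Icam1 rose 1.77-fold in Model (0.82 ± 0.24; edgeR adjusted p = 0.00723) and 2.06-fold in CDs (1.04 ± 0.24; edgeR adjusted p = 0.00173), from 8.23 to 12.9 reads per 100 in Blank to 16.3 to 19.2 in Model and 15.6 to 26.5 in CDs.

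Ackr1 and Selplg did not pass relative to the vessel markers in Model. Ackr1 had 2.40 to 3.08 reads per 100 vessel marker reads in Blank, 3.13 to 3.85 in Model and 4.89 to 5.70 in CDs. These 3 ranges did not overlap, and the share of all tested genes with such ranges was not computed on this scale. Its log2 fold change was 0.35 ± 0.22 in Model (95% interval -0.14 to 0.84; edgeR adjusted p = 0.166) and 0.93 ± 0.22 in CDs (edgeR adjusted p = 0.00230). It was called in Model when the counts were scaled to 20 other vessel wall genes (0.54; edgeR adjusted p = 0.0463). Selplg was at 21.0, 9.12 and 8.81 reads per 100 in Blank, 14.1 to 18.7 in Model and 14.8 to 29.9 in CDs, where Blank 1 lay above all 3 Model libraries and within the CDs range. Its log2 fold change was 0.31 ± 0.35 in Model (95% interval -0.45 to 1.07; edgeR adjusted p = 0.423) and 0.69 ± 0.35 in CDs (edgeR adjusted p = 0.0902). Without Blank 1 the values were 0.85 (edgeR adjusted p = 0.0259) and 1.22 (edgeR adjusted p = 0.00429), so that both outcomes for Selplg changed when that library was left out.

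**Figure D3:**
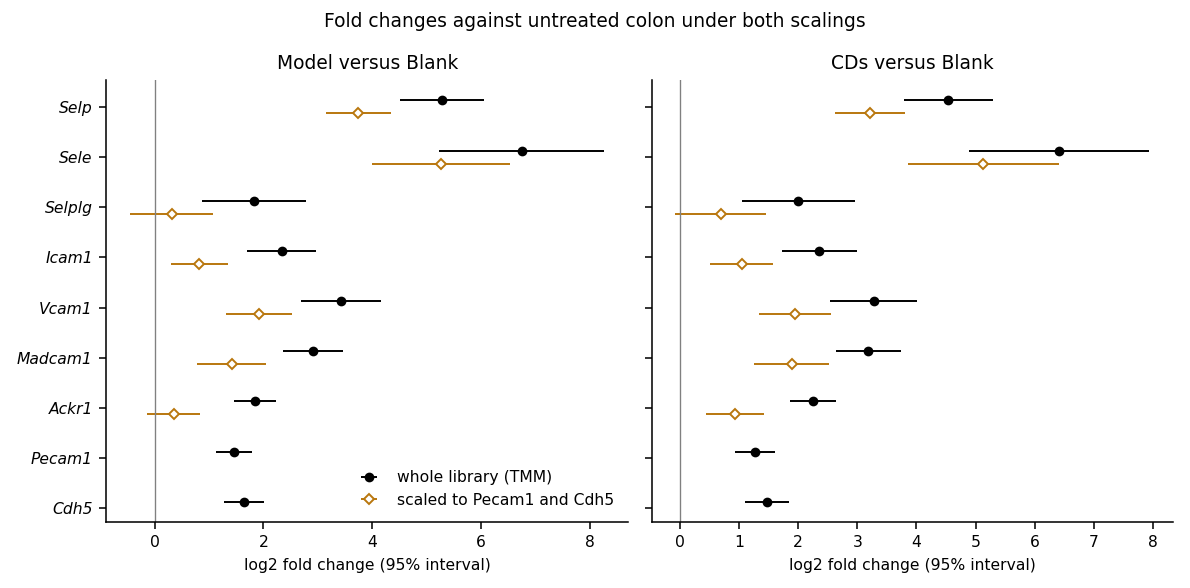
Log2 fold changes of the 9 genes with 95% intervals in Model versus Blank and CDs versus Blank, on the whole-library scale (filled circles) and relative to the reads of Pecam1 and Cdh5 (open diamonds, 7 genes). Relative to the vessel markers the values run from 0.31 for Selplg to 5.26 for Sele in Model, and the intervals of Selplg and Ackr1 reach 0 there.

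**Figure D4:**
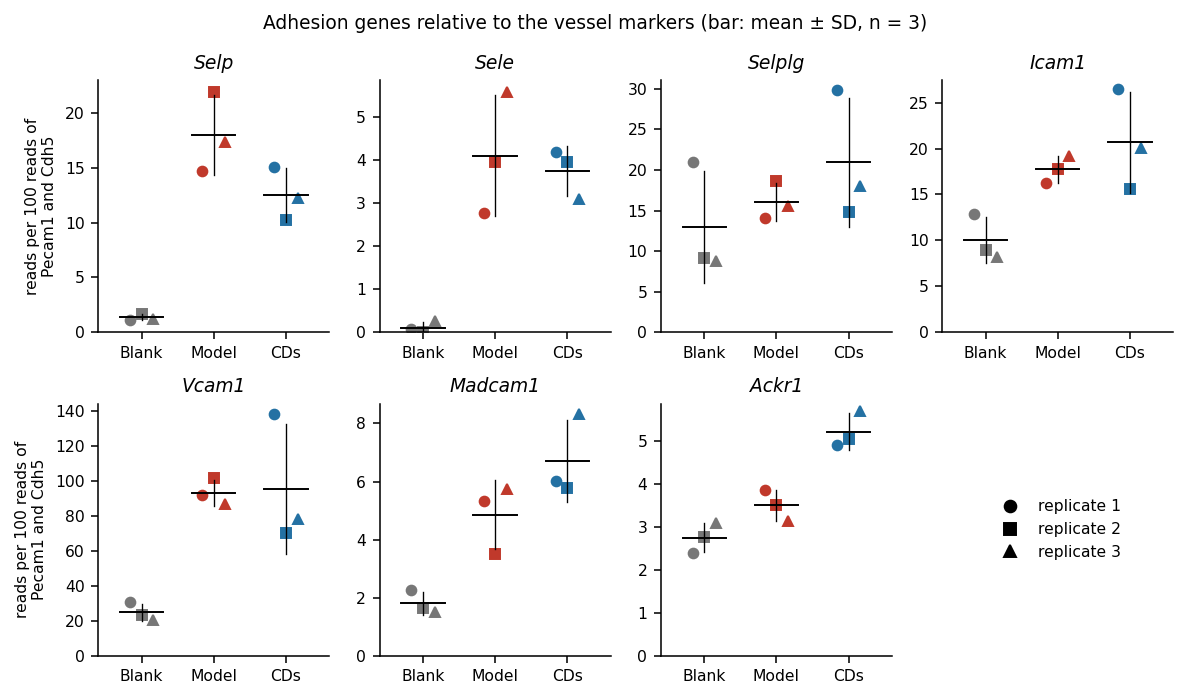
Reads of each adhesion gene per 100 reads of Pecam1 and Cdh5 in each library (points), with the group mean and SD (n = 3; bars stop at 0). Selp, Sele and Vcam1 separate both DSS groups from Blank by a wide gap, Ackr1 is highest in CDs at 4.89 to 5.70, and for Selplg Blank 1 lies above the Model libraries and within the CDs range.

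The comparison CDs versus Model asks what carbon dots changed in DSS-treated colon. None of the 9 genes was called, as was 0% of the 14921 tested genes on the whole-library scale and 0% relative to the vessel markers. The smallest adjusted p over all genes was 0.891, and 788 genes had an unadjusted p under 0.05, Selp and Ackr1 among them. DESeq2 called 50 genes and limma 0, none of them a member. Selp had the lowest log2 fold change of the 9, -0.74 ± 0.26 (95% interval -1.34 to -0.15; edgeR unadjusted p = 0.0194 from the fit over all genes, adjusted p = 0.925). On the whole-library scale it was at 29.8, 62.8 and 47.5 CPM in Model 1, 2 and 3 and 34.7, 25.5 and 23.5 CPM in CDs 1, 2 and 3, where CDs 1 lay above Model 1 and the groups overlapped. Platelet and erythroid markers had their highest sums in Model 2, the library with the most Selp, as did neutrophil, fibroblast and lymphatic vessel markers. The part of any of these cells in the Selp difference was not tested. Ackr1 was higher in CDs, by 0.40 ± 0.16 (95% interval 0.04 to 0.75; edgeR unadjusted p = 0.0320, adjusted p = 0.936). At 7.77, 10.02 and 8.58 CPM in Model and 11.3, 12.6 and 10.95 CPM in CDs, Ackr1 was the 1 member of 9 whose CDs libraries all lay above the Model libraries, beside 3.22% of all tested genes. None lay wholly below, beside 4.77%. Relative to the vessel markers the CDs libraries lay above the Model libraries for Ackr1 and also for Madcam1, at 5.78 to 8.34 against 3.50 to 5.75 reads per 100. That scale places the median of all tested genes at 0.19 on the log2 scale in CDs versus Model. The share of all tested genes that separate in this way on it was not computed.

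For the other members the intervals of CDs versus Model included 0. Their log2 fold changes were -0.34 ± 0.40 for Sele (95% interval -1.25 to 0.57), 0.17 ± 0.40 for Selplg (-0.74 to 1.08), 0.02 ± 0.26 for Icam1 (-0.57 to 0.61) and -0.15 ± 0.29 for Vcam1 (-0.81 to 0.52). None of these 4 genes was called, and the intervals hold differences of either sign. Madcam1 differed by 0.28 ± 0.21 (-0.19 to 0.76), Pecam1 by -0.19 ± 0.15 (-0.52 to 0.14) and Cdh5 by -0.17 ± 0.16 (-0.53 to 0.18). Pecam1 had the narrowest interval of the 9. Relative to the vessel markers, Selp differed by -0.53 ± 0.22 and Ackr1 by 0.58 ± 0.21 (edgeR adjusted p = 0.813 for both). When the 3 libraries holding acinar transcripts (Model 1, Model 3 and CDs 1) were left out, the log2 fold change of Selp was -1.36. Calls of that fit are not read in this comparison. Model 2, the library highest in Selp, was then the whole Model group, and the fit took its spread from the other groups.

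**Figure D5:**
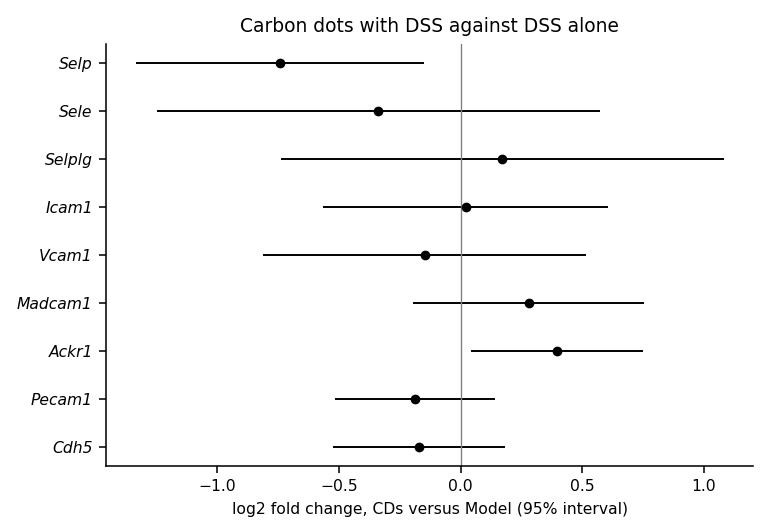
Log2 fold change of each gene in CDs versus Model with its 95% interval, on the whole-library scale. Only the intervals of Selp (-1.34 to -0.15) and Ackr1 (0.04 to 0.75) lie on 1 side of 0, and neither gene passed after adjustment over 14921 genes.

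Other genes of the adhesion cascade had lower median fold changes in Model versus Blank than the 7 adhesion genes, whose median was 2.91 on the log2 scale. The 7 genes, Sele among them, and the lists were chosen with earlier results of these data known, so this order of medians is description only. Of 18 other adhesion and transmigration genes 16 were tested, and 10 rose and none fell in Model, with a median of 0.88. The 3 with the smallest p were Stab1, a scavenger receptor of endothelium and macrophages (1.71 ± 0.16), Mcam (1.39 ± 0.17) and the endothelial junction gene Esam (1.58 ± 0.21), which is also among the vessel wall genes above. In CDs versus Blank 11 of the 16 rose, beside 21.8% of all tested genes. Glycam1 is among the 11, although it would not have passed the filter in Blank alone and so supports no count. Of 15 leukocyte integrins and counter-receptors 10 rose and 1 fell in Model, the latter being Cd177, and the 3 with the smallest p were Itgam, the α chain of Mac-1 (2.94 ± 0.36), Sirpa, an inhibitory receptor of myeloid cells (2.04 ± 0.17), and Itga9 (1.09 ± 0.12). For the chains of the MAdCAM-1 receptor, the log2 fold change in Model was 1.41 ± 0.31 for Itga4 (edgeR adjusted p = 0.00758) and 1.04 ± 0.49 for Itgb7 (edgeR adjusted p = 0.116), and in CDs both rose, by 1.55 ± 0.32 (edgeR adjusted p = 0.00639) and 1.56 ± 0.50 (edgeR adjusted p = 0.0372). The difference between the chains was not tested. These 2 genes, and Fut4 below, were chosen after their values were seen.

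Of 10 enzymes of selectin ligand synthesis tested in a list of 11, 3 rose and 3 fell in Model, shares near those of all tested genes (24.5% higher and 19.6% lower). The tyrosine sulfotransferase Tpst1, which modifies PSGL-1, rose by 1.45 ± 0.17, while the sialyltransferases St3gal4 (-1.39 ± 0.24) and St3gal6 (-1.71 ± 0.32) and the fucosyltransferase Fut4 (-1.05 ± 0.30) fell. Epithelium uses several of these enzymes for mucins, and summed epithelial markers were at 10805 to 12483 CPM in Blank, 5725 to 10226 CPM in Model and 6927 to 11137 CPM in CDs, with 3 of 10 called lower in Model. The part of epithelial content in these falls was not tested.

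Of 12 listed cytokine and growth factor genes, most of them known to act on endothelium, 9 were tested. Of these, 4 (Il1a, Lta, Osm and Csf3) passed the filter on low counts only with the DSS libraries, so that they had to differ and support no count. Of the other 5, 3 rose in Model, among them Il1b by 5.64 ± 0.71 on the log2 scale. Csf3 was at 0 to 0.0686 CPM in Blank and 3.56 to 22.4 CPM in Model, and its fitted fold change, which rests on almost no Blank reads, is not given. Vegfa, the vascular growth factor, did not pass in Model (-0.05 ± 0.09; edgeR adjusted p = 0.667) and fell in CDs versus Blank (-0.33 ± 0.09; edgeR adjusted p = 0.0224). Of 13 cytokine receptors and NF-kB components 10 rose and none fell, with the oncostatin M receptor Osmr at 3.05 ± 0.19, the interleukin 1 receptor Il1r1 at 2.30 ± 0.24 and the TNF receptor Tnfrsf1a at 1.35 ± 0.12. No gene of these 5 lists was called in CDs versus Model.

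Profiles over the 9 libraries were compared by the root mean square difference between log2 CPM values after each gene was centred on its own mean. Within the 9 genes Pecam1 and Cdh5 were the closest pair (0.12), followed by Selplg and Icam1 (0.27), whereas Sele and Pecam1 were the farthest (1.99). Selp and Sele differed by 0.63. Among all other tested genes the closest to Selp were Timp1 (0.26), Lgi2 (0.26) and Mmp9 (0.33), and the closest to Sele were Chil1 (0.49), Cxcl5 (0.51) and Serpina3n (0.59). For Icam1 they were Spi1 (0.06), Cd300c2 (0.09) and Pla2g7 (0.11), for Vcam1 Alpl (0.17), Fcgr1 (0.18) and Ifi205 (0.19), and for Selplg Sash3, Rac2 and Parvg (each 0.13), of which Rac2 is also among the leukocyte markers above. Madcam1 was closest to Cd300ld (0.27), Gata1 (0.27) and Tnfaip2 (0.27), and Ackr1 to S1pr3 (0.19), Bend4 (0.19) and Nhsl2 (0.21). Pecam1 lay closest to Arap3 (0.06), Dennd5a (0.07) and Dysf (0.07), and Cdh5 to Ssc5d (0.09), Erg (0.10) and Dysf (0.10). The difference between DSS and Blank libraries makes up most of each profile, so that likeness here is first a likeness in the size of that change.

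Lymphatic vessel and fibroblast markers rose in Model as well, and pericyte and smooth muscle markers did so only in part. All 7 lymphatic vessel markers were called higher, with a median log2 fold change of 1.94 and Lyve1, a hyaluronan receptor of lymphatic endothelium, at 2.07 ± 0.20. All 8 fibroblast markers rose (median 1.96), with summed levels of 1736 to 1988 CPM in Blank, 5108 to 12222 CPM in Model and 5393 to 6801 CPM in CDs. Of 9 pericyte and smooth muscle markers 4 rose, among them the pericyte receptor gene Pdgfrb (1.52 ± 0.19), beside 24.5% of all tested genes. The median of that list was 0.13, with values down to -0.61 for Tagln, and none was called lower. The part of these vessel and stromal cells in the levels of Vcam1 and Icam1 was not tested.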

How the data were processed

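Colon RNA of 9 mouse libraries in 3 groups of 3 was analysed, grouped by the sample titles. Per the labels' protocols, poly-A RNA was fragmented, copied with random primers and amplified by PCR, with no step that marks the strand. The submitters' processing notes name the tools HTSeq 0.9.1, HISAT2 2.1.0 and fastp 0.22.0, with build and strand setting not given in the sources used here. The authors deposited, per the file headers, counts and FPKM values side by side. The FPKM values equalled count over deposited gene length and library total in 100% of values (relative tolerance 1e-06).

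The quasi-likelihood F test of edgeR 4.0.16 (R 4.3.3) was run on the counts of all 9 libraries, with the groups as the only term. TMM scaling followed an expression filter with minimum count 10, which kept 14921 genes. P-values, all two-sided, were adjusted by Benjamini and Hochberg over all tested genes, with calls at 0.05. SE was taken as log2 fold change over the root of F, and 95% intervals use the total (residual and prior) degrees of freedom of the fit. A second fit set the library size to the summed reads of Pecam1 and Cdh5. Log2 CPM for profiles used a prior count of 2. The tests were checked on simulated counts. Alternatives were DESeq2 1.42.0, limma 3.58.1 on log2 FPKM with pseudocounts of 1 and 0.1, no filter, other scalings, the replicate number as a block, and left-out libraries. The members and gene lists were chosen with earlier results of these data known. Genes named from a list are its 3 smallest p in Model versus Blank unless said otherwise. Cldn5, Vegfa, Glycam1, Fut7, Ly6g and Cd177 were named after their values were seen, as were genes of a list chosen as examples outside that rule. P-values measure the spread between these libraries. A gene of a list is not reported here.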

Additional observations from a re-analysis of the deposited data

How the results depend on the processing

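In Model versus Blank and in CDs versus Blank all 9 genes were called higher under each of the 18 alternatives run, leaving out each library in turn included (9 to 9 genes in both). Relative to the vessel markers, over 16 alternatives, 5 to 6 of 7 adhesion genes were called in Model versus Blank and 6 to 7 in CDs versus Blank. Sele, which supports no count, is among the genes on both scales. The numbers in CDs versus Model were 0 to 0 when single libraries were left out, on both scales. They were 1 on both scales without Model 1, Model 3 and CDs 1, where Selp was called lower (-0.97, edgeR adjusted p = 0.0192, relative to the vessel markers). The replicate numbers share only a number: same-numbered libraries of different groups correlated between -0.37 and 0.21 in their deviations, and 4 of 9 libraries correlated best with their own number. With the replicate block the counts were 9, 0 and 9, and 5, 0 and 7 relative to the vessel markers, the 1 change of call being Selplg in CDs versus Blank (0.72; edgeR adjusted p = 0.0471). Of 822 alternative fold changes 793 kept direction and call, 8 gained a call, 0 lost one and 21 turned sign, each of the 21 in CDs versus Model where nothing was called.

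The sign changes, on the log2 scale, were as follows. On the whole-library scale Icam1 was at -0.0252 with the replicate block, -0.0113 with DESeq2 size factors and -0.0110 with DESeq2. Without Model 1, Model 3 and CDs 1 Icam1 was at -0.40 and Selplg at -0.57, and without Blank 1 and CDs 1, a setting chosen after seeing the data, at -0.23 and -0.21. With single libraries left out, the ranges were -0.23 to 0.14 for Icam1, -0.21 to 0.40 for Selplg and -0.55 to 0.0592 for Vcam1. Relative to the vessel markers Vcam1 was at -0.0318 with the replicate block, -0.45 without Model 1, Model 3 and CDs 1 and -0.33 without Blank 1 and CDs 1, and ranged from -0.33 to 0.21 with single libraries left out, while Sele ranged from -0.34 to 0.15. Without Model 1, Model 3 and CDs 1 Selplg was at -0.18 and Icam1 at -0.0024 on that scale. The cause of these changes was not tested. The pseudocount sets the size of the Sele change, 2.11 with 1 and 4.77 with 0.1 in Model versus Blank, and its 4 Blank reads limit it.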
